A study of Mus musculus with 6 samples.

Results

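The 9 genes described here encode dual-specificity MAP kinase phosphatases, *Dusp1*, *Dusp2*, *Dusp4*, *Dusp5*, *Dusp6*, *Dusp7*, *Dusp8*, *Dusp10* and *Dusp16*. They were chosen by symbol from the 55426 genes of the deposited table, and each symbol matched 1 row. RNA was sequenced from abdominal aortas of male C57BL/6J mice, with 3 libraries of control mice and 3 of *Prdm16* SMKO mice. Per the study's methods, *Prdm16* SMKO mice carried *Prdm16* fl/fl alleles with *Myh11*-CreERT2, a Cre recombinase made in smooth muscle and switched on by tamoxifen. A figure legend of the study gives the control mice as wild type with *Myh11*-CreERT2. For its aneurysm experiments the methods give tamoxifen at 75 mg/kg/day for 5 days at an age of 8 to 10 weeks, with use of the mice 2 weeks later. They do not say outright that this scheme was used for the mice sequenced here or that the controls received tamoxifen. The aortas sequenced here had not been injured, and the labels call their groups only control and *Prdm16* knockout. Values are TPM, a share of transcripts that takes each transcript's length into account, so that levels can be set side by side between genes. Library values are listed in the order of replicates 1, 2 and 3.

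MAP kinases (ERK, JNK and p38) are switched on by phosphorylation of a threonine and a tyrosine in the same loop. The phosphatases of this family remove both phosphates, and many of their genes are themselves induced by MAP kinase signalling, which closes a negative feedback loop. *Dusp1*, *Dusp2*, *Dusp4* and *Dusp5* encode nuclear, inducible enzymes, *Dusp6* and *Dusp7* encode cytoplasmic enzymes that act on ERK, and *Dusp8*, *Dusp10* and *Dusp16* encode enzymes that act mainly on JNK and p38. In VSMCs these pathways carry signals for growth, contraction, stretch and stress.

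None of the 9 genes passed the threshold for a call, an adjusted p under 0.05 between the genotypes (limma, Benjamini-Hochberg over the 15775 genes tested). At an unadjusted p under 0.05 there were 3, *Dusp1*, *Dusp5* and *Dusp10*, all with lower values in *Prdm16* SMKO mice. That number was 1, *Dusp5*, without control replicate 1 or 2. In either direction it ranged from 1 to 5 among the alternatives. Over all genes tested 0.355% were called, and 3.85% had an unadjusted p under 0.05 with a lower value in *Prdm16* SMKO mice, and 4.88% with a higher one. Of the 9 genes, 6 had a log2 fold change below 0, against 45.8% of all genes, and 3 above. Their median was −0.39, while that of all genes tested was 0.02. Without *Prdm16* SMKO replicate 1 the median of the 9 genes was −0.02. *Dusp5* and *Dusp8* were the members whose groups did not overlap, both with lower values in *Prdm16* SMKO mice. Over all genes tested, 5.76% had no overlap with lower values and 7.02% with higher values.

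The sequences that lie before the start sites are shown for the 4 genes with the lowest unadjusted p, *Dusp1*, *Dusp5*, *Dusp8* and *Dusp10*, and for *Dusp7*, a member on the other side of 0. Each is the 200 bases from 250 to 51 bases before the RefSeq start site on GRCm38.p6, read 5′ to 3′ on the gene's strand. Capitals mark the cyclic AMP response element, CRE (TGACGTCA), its shorter form TGACG (on either strand, so that CGTCA counts, and also found inside each CRE) and CArG boxes, the sequence bound by serum response factor.
Dusp1: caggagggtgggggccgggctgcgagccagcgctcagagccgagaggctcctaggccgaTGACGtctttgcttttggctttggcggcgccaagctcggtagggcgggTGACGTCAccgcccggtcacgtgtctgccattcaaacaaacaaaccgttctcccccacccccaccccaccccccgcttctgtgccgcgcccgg
Dusp5: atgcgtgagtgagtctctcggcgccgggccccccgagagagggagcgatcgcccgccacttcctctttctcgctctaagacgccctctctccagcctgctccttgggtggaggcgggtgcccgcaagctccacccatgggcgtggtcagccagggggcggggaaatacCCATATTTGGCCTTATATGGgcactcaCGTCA
Dusp8: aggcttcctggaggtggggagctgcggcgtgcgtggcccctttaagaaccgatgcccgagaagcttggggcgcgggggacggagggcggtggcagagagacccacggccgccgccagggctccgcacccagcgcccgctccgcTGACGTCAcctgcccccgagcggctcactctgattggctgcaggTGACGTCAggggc
Dusp10: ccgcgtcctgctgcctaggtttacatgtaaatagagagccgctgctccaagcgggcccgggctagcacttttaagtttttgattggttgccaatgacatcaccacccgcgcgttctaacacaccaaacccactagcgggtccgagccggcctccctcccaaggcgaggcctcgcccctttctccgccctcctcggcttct
Dusp7: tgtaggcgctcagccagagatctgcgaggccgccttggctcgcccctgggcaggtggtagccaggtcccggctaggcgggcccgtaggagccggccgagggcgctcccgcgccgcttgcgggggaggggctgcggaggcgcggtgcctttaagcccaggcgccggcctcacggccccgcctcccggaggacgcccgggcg
The window of *Dusp1* is chr17:26508523-26508722 on the minus strand, that of *Dusp5* chr19:53528895-53529094 on the plus strand and that of *Dusp8* chr7:142095335-142095534 on the minus strand. The window of *Dusp10* is chr1:184034131-184034330 and that of *Dusp7* chr9:106368382-106368581, both on the plus strand.

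The *Dusp1* window held 1 CRE, at positions −143 to −136 relative to the start, and a further TGACG. The *Dusp8* window held 2 CREs, at positions −107 to −100 and −63 to −56. CRE letters were in 0.828% of the 32851 RefSeq windows of the same length, and TGACG letters in 12.7%. In *Dusp5* there were 2 CArG boxes side by side, CCATATTTGG and CCTTATATGG, at positions −82 to −63, and 1.16% of all windows held a CArG box. CGTCA followed them, at positions −55 to −51. *Dusp10* and *Dusp7* held none of these letters, nor did *Dusp2* and *Dusp6*, and *Dusp16* held 1 TGACG. Letters of AP-1 (TGANTCA, both strands), ETS (CCGGAAGT, both strands), EGR (GCGTGGGCG, both strands) and the heat shock element (GAANNTTC, the same on both strands) were in none of the 8 windows, against 5.57%, 1.40%, 0.353% and 5.17% of all windows. The windows are rich in G and C, from 58.0% in *Dusp6* to 77.5% in *Dusp7*, with a median of 51.5% over all windows. A RefSeq window was used for 8 of the 9 genes, and *Dusp4* was not among them. The RefSeq start of *Dusp1* lies 53656 bases from the first base of the gene in GENCODE M21, that of *Dusp10* 21079 bases and that of *Dusp8* 559 bases. Each of these windows lies inside the GENCODE gene and stands for 1 of its annotated starts.

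*Prdm16* (ENSMUSG00000039410, chromosome 4 of GRCm38, 154316125 to 154636873), the targeted gene, held 33.42, 36.83 and 30.77 TPM in control libraries, against 20.75, 27.67 and 14.77 TPM in *Prdm16* SMKO libraries. The groups did not overlap, with a log2 fold change of −0.70 that was not past the threshold (standard error 0.23; limma, Benjamini-Hochberg adjusted p = 0.376). By a figure legend, the study also measured *Prdm16* by quantitative PCR, which was not compared here. None of the 9 phosphatase genes lies on chromosome 4. Smooth muscle genes were abundant in every library, with a sum of 12040 to 26110 TPM over 10 markers such as *Myh11* and *Acta2*. In whole aorta, fewer cells of a type and less RNA per cell cannot be told apart.

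**Figure D1:**
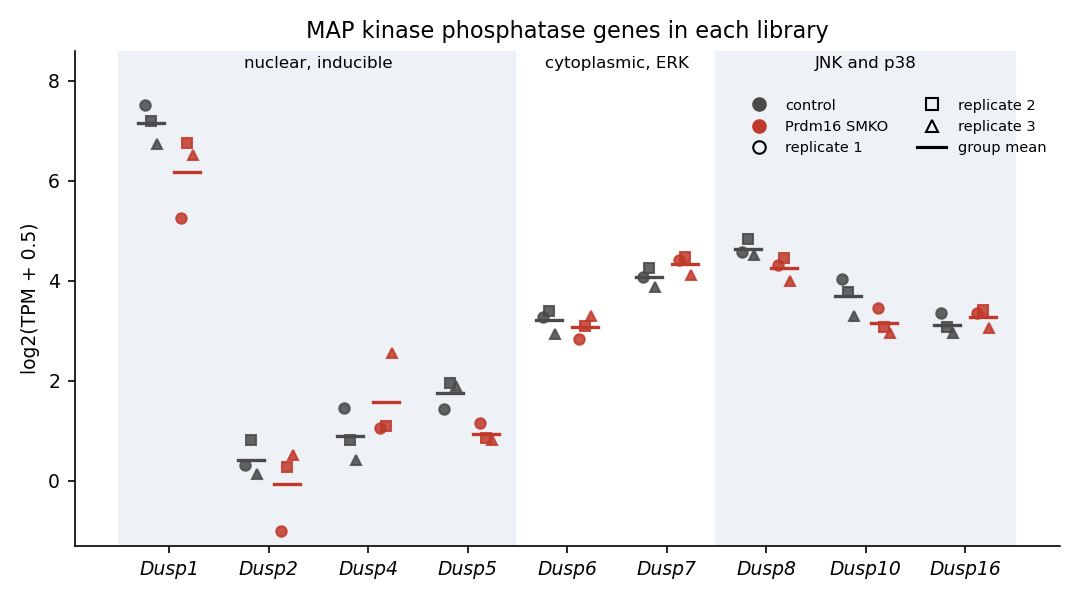
Expression of the 9 phosphatase genes on a log2(TPM + 0.5) axis, with 1 point per library, shaped by replicate, in grey for control and red for Prdm16 SMKO mice, and a bar for the group mean. Dusp1 stands above the others in every library, and the groups are apart only in Dusp5 and Dusp8.

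*Dusp1* was the most abundant of the 9 genes. It made up 62.0% to 69.7% of their summed TPM in the 3 control libraries and 35.03%, 59.6% and 58.5% in *Prdm16* SMKO replicates 1, 2 and 3. In control mice it was followed by *Dusp8* (24.6 ± 2.99 TPM, SD, n = 3), *Dusp7* (16.4 ± 2.27), *Dusp10* (12.8 ± 3.25), *Dusp6* (8.82 ± 1.50), *Dusp16* (8.27 ± 1.25), *Dusp5* (2.92 ± 0.633), *Dusp4* (1.44 ± 0.730) and *Dusp2* (0.860 ± 0.346), each over n = 3 libraries. The ranges of *Dusp7* and *Dusp10* overlapped, as did those of *Dusp10* and *Dusp6*, of *Dusp6* and *Dusp16*, of *Dusp5* and *Dusp4* and of *Dusp4* and *Dusp2*. In *Prdm16* SMKO mice *Dusp7* followed *Dusp1* and stood before *Dusp8*, *Dusp16* came before *Dusp10* and *Dusp6*, and *Dusp4* before *Dusp5*. Within that order the neighbouring ranges were apart between *Dusp1* and *Dusp7*, *Dusp8* and *Dusp16*, *Dusp6* and *Dusp4*, and *Dusp5* and *Dusp2*.

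*Dusp1* (ENSMUSG00000024190, chromosome 17 of GRCm38, 26505590 to 26562128) encodes a nuclear phosphatase of p38, JNK and ERK and is itself an immediate-early gene. Control libraries held 183.49, 145.81 and 105.79 TPM, against 37.77, 107.38 and 90.39 TPM in *Prdm16* SMKO libraries. *Prdm16* SMKO replicate 1 was far below the other 5 libraries, and *Prdm16* SMKO replicate 2 was just above control replicate 3, so that the groups overlapped. The mean was 145 ± 38.9 TPM in control and 78.5 ± 36.3 TPM in *Prdm16* SMKO mice (SD, n = 3 each), which is 45.9% lower. The log2 fold change was −0.98 with a 95% interval of −1.83 to −0.13 (limma, unadjusted p = 0.0288, Benjamini-Hochberg adjusted p = 0.487). Without *Prdm16* SMKO replicate 1 it was −0.52, and its adjusted p was 0.584. *Ergic1* overlaps *Dusp1* on the opposite strand by 11 exonic bases, and whether reads were counted by strand is not given in the sources used here.

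*Dusp5* (ENSMUSG00000034765, chromosome 19, 53529109 to 53542431) encodes a nuclear phosphatase specific for ERK. Control libraries held 2.19, 3.35 and 3.21 TPM, against 1.71, 1.31 and 1.26 TPM in *Prdm16* SMKO libraries. All 3 *Prdm16* SMKO libraries were below all 3 control libraries, and their mean was 51.1% lower (1.43 ± 0.247 against 2.92 ± 0.633 TPM, SD, n = 3 each). On the log2 scale it was −0.82 with a 95% interval of −1.38 to −0.25, with the lowest unadjusted p of these genes (limma, unadjusted p = 0.0101, Benjamini-Hochberg adjusted p = 0.347). An exact two-sided permutation test gave p = 0.1, the smallest that 3 libraries against 3 can give. With 1 library left out, the log2 fold change lay between −0.98 and −0.72, and with array weights it was −0.53. An antisense gene, AC137853.2, shares 547 exonic bases with *Dusp5* and was listed at 0 in 5 libraries and at 0.14 TPM in *Prdm16* SMKO replicate 1.

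*Dusp4* (ENSMUSG00000031530, chromosome 8, 34807297 to 34819894), another nuclear phosphatase, held 2.25, 1.25 and 0.83 TPM in control libraries, against 1.57, 1.64 and 5.35 TPM in *Prdm16* SMKO libraries. The highest value, in *Prdm16* SMKO replicate 3, was above those of the other 5 libraries, and the remaining *Prdm16* SMKO libraries lay within the control range. Its log2 fold change was 0.67 with a 95% interval of −0.35 to 1.696 (limma, Benjamini-Hochberg adjusted p = 0.814), and leaving out *Prdm16* SMKO replicate 3 gave 0.18 and array weights gave 0.067. A list of 8 white adipocyte genes summed to 1610, 1022 and 771.5 TPM in control libraries and to 1080, 992.2 and 3983 TPM in *Prdm16* SMKO libraries. The highest sum was in the library with the highest *Dusp4*, and the lowest *Dusp4* value was in the library with the lowest sum. A list of 7 brown adipocyte genes was also highest there, at 746.0 TPM against 19.17 to 284.1 TPM in the other libraries. The part of fat cells in the *Dusp4* values was not tested.

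*Dusp2* (ENSMUSG00000027368, chromosome 2, 127336159 to 127338376), known from activated immune cells, held 0.74, 1.25 and 0.59 TPM in control libraries. It was listed at 0 in *Prdm16* SMKO replicate 1 and was at 0.71 and 0.93 TPM in replicates 2 and 3. These values lie near the minimum mean of 0.5 TPM, and the groups overlapped. Its log2 fold change was −0.48 with a 95% interval of −1.54 to 0.57 (limma, Benjamini-Hochberg adjusted p = 0.892), and it was −0.019 without *Prdm16* SMKO replicate 1. It was −1.08 with a pseudocount of 0.1 and −0.31 with a pseudocount of 1. Of the 6 libraries, *Prdm16* SMKO replicate 1 was the lowest for both *Dusp1* and *Dusp2*. A list of 10 neuron and Schwann cell genes had its highest sum in that library, at 596.2 TPM against 98.08 to 247.2 TPM in the others. The part of these cells in the *Dusp1* and *Dusp2* values was not tested.

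*Dusp6* (ENSMUSG00000019960, chromosome 10, 99263231 to 99267489), a phosphatase of ERK in the cytoplasm and a common readout of ERK signalling, held 9.23, 10.07 and 7.16 TPM in control libraries. The *Prdm16* SMKO libraries, at 6.68, 8.05 and 9.29 TPM, overlapped the controls, with only replicate 1 below all of them. Its log2 fold change was −0.13 with a 95% interval of −0.58 to 0.32 (limma, Benjamini-Hochberg adjusted p = 0.950), and was −0.27 without control replicate 3 but −0.014 with *Prdm16* SMKO replicate 1 left out. *Dusp7* (ENSMUSG00000053716, chromosome 9, 106368632 to 106375724), its close relative in the cytoplasm, held 16.34, 18.64 and 14.09 TPM in control and 20.69, 21.58 and 16.79 TPM in *Prdm16* SMKO libraries. All 3 *Prdm16* SMKO libraries were above the control mean, and *Prdm16* SMKO replicate 3 lay inside the control range. The log2 fold change of *Dusp7* was 0.26 with a 95% interval of −0.14 to 0.66 (limma, Benjamini-Hochberg adjusted p = 0.814), and it was 0.16 without control replicate 3.

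*Dusp8* (ENSMUSG00000037887, chromosome 7, 142079490 to 142095843), a phosphatase of JNK and p38, held 23.39, 27.99 and 22.37 TPM in control libraries, against 19.30, 21.38 and 15.49 TPM in *Prdm16* SMKO libraries. The groups did not overlap, with lower values in *Prdm16* SMKO mice, by a margin between *Prdm16* SMKO replicate 2 and control replicate 3 that was smaller than the SD of either group. The mean was 24.6 ± 2.99 TPM in control and 18.7 ± 2.99 TPM in *Prdm16* SMKO mice (SD, n = 3 each), which is 23.8% lower. The log2 fold change was −0.39 with a 95% interval of −0.79 to 0.01 (limma, unadjusted p = 0.0559, Benjamini-Hochberg adjusted p = 0.595).

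*Dusp10* (ENSMUSG00000039384, chromosome 1, 184013302 to 184075636), also a phosphatase of JNK and p38, held 15.81, 13.21 and 9.35 TPM in control libraries, against 10.39, 7.92 and 7.21 TPM in *Prdm16* SMKO libraries. *Prdm16* SMKO replicate 1 was above control replicate 3, and the other 2 *Prdm16* SMKO libraries were below all controls. The mean was 33.5% lower in *Prdm16* SMKO mice (8.51 ± 1.67 against 12.8 ± 3.25 TPM, SD, n = 3 each), with a log2 fold change of −0.55 and a 95% interval of −1.07 to −0.02 (limma, unadjusted p = 0.0425, Benjamini-Hochberg adjusted p = 0.547). With array weights, which let noisier libraries weigh less, *Dusp10* was at −0.82 and was called (limma, Benjamini-Hochberg adjusted p = 0.0495, over a range of 0.0495 to 0.974 among the alternatives). *Dusp16* (ENSMUSG00000030203, chromosome 6, 134715468 to 134792625), which acts on JNK and p38 from the cytoplasm, held 9.66, 7.93 and 7.22 TPM in control and 9.71, 10.11 and 7.76 TPM in *Prdm16* SMKO libraries. The groups overlapped, with a log2 fold change of 0.15 and a 95% interval of −0.28 to 0.57 (limma, Benjamini-Hochberg adjusted p = 0.925). It lay between 0.058 without control replicate 3 and 0.26 without control replicate 1 or *Prdm16* SMKO replicate 3, and with array weights it was −0.022.

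**Figure D2:**
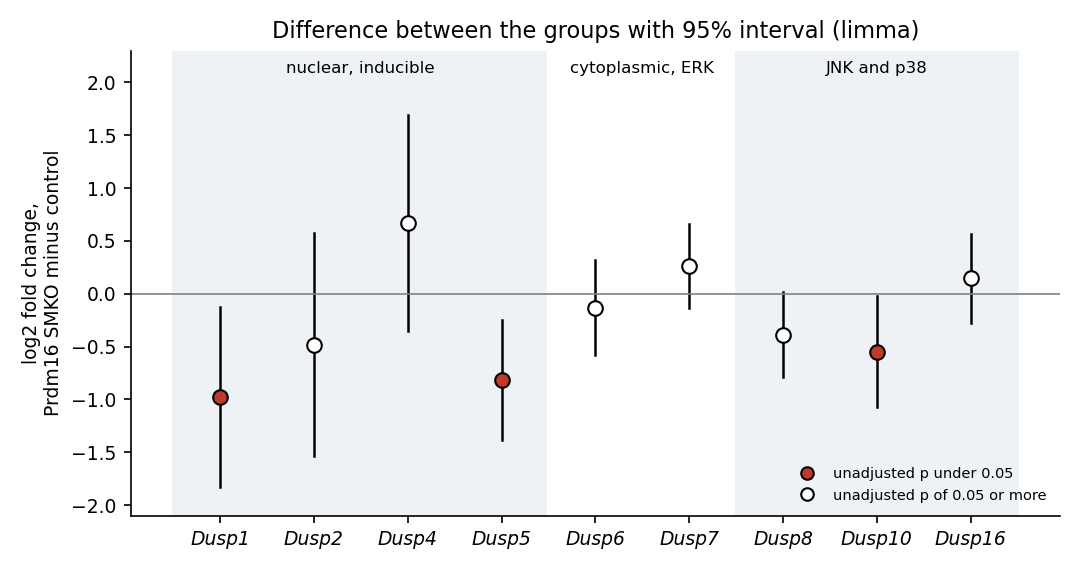
Log2 fold change of each phosphatase gene, Prdm16 SMKO minus control on log2(TPM + 0.5), with its 95% interval from limma, filled where the unadjusted p was under 0.05. The intervals of Dusp1, Dusp5 and Dusp10 lie below 0, that of Dusp8 reaches 0.01, and the other 5 span 0.

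The scaling of a library moves all of its genes together, whereas a ratio of 2 genes within a library does not depend on it. *Dusp8* was above *Dusp7* in all 3 control libraries, with ratios of 1.431, 1.502 and 1.588. In the *Prdm16* SMKO libraries *Dusp8* was below *Dusp7*, with ratios of 0.933, 0.991 and 0.923. The mean ratio was 1.51 ± 0.0782 in control and 0.949 ± 0.0367 in *Prdm16* SMKO mice (SD, n = 3 each). This pair was chosen after its values were seen, so no test is given. Of the 28 pairs of phosphatase genes above 0 in every library, 12 had ratios whose groups did not overlap, against 20.3% of all pairs of tested genes above 0 in every library. The 28 pairs share genes and are not independent of each other. Among the 8 genes other than *Dusp1*, *Dusp7* made up 20.5%, 22.3% and 21.7% of the summed TPM in control libraries and 29.5%, 29.7% and 26.2% in *Prdm16* SMKO libraries. The sum of these 8 genes was 76.0 ± 9.93 TPM in control and 68.9 ± 4.41 TPM in *Prdm16* SMKO mice (SD, n = 3 each), with overlapping ranges. By class, the genes for JNK and p38 phosphatases summed to 48.86, 49.13 and 38.94 TPM in control and to 39.40, 39.41 and 30.46 TPM in *Prdm16* SMKO libraries. The 2 genes for cytoplasmic ERK phosphatases summed to 25.57, 28.71 and 21.25 TPM in control and to 27.37, 29.63 and 26.08 TPM in *Prdm16* SMKO libraries. The 4 genes for nuclear phosphatases, of which *Dusp1* is by far the most abundant, summed to 188.67, 151.66 and 110.42 TPM in control and to 41.05, 111.04 and 97.93 TPM in *Prdm16* SMKO libraries. Each of these sums overlapped between the groups.

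**Figure D3:**
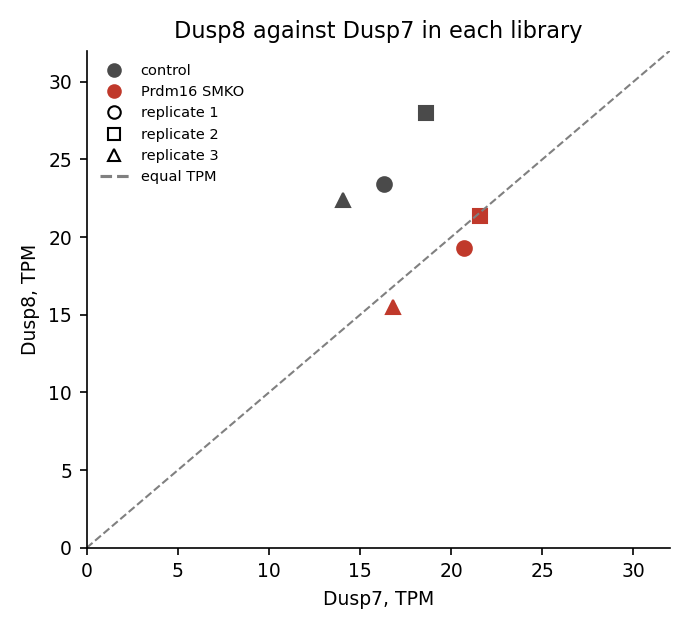
TPM of Dusp8 on the vertical axis against TPM of Dusp7 on the horizontal axis, with 1 point per library and a dashed line of equal TPM. The 3 control libraries lie above the line, with ratios of 1.43 to 1.59, and the 3 Prdm16 SMKO libraries lie just below it, with ratios of 0.923 to 0.991.

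The members varied differently among the 6 libraries. Relative to the control mean on the log2 scale, *Dusp1* was at −1.89, −0.40 and −0.64 in the *Prdm16* SMKO libraries, furthest from it in replicate 1. *Dusp5* was at −0.61, −0.90 and −0.94, nearest to the control mean in that same library. Control replicate 3 was the lowest control library for each of these genes except *Dusp5*. The genes whose log2(TPM + 0.5) followed a member most closely over the 6 libraries are given by Pearson's r as a description, taking only genes that averaged 5 TPM or more. They were *Edrf1* (0.996), *Mmp28* (0.975) and *Foxn2* (0.975) for *Dusp1*, *Dok4* (0.976), *Mapk8* (0.967) and *Gm10557* (0.967) for *Dusp2*, and *Cebpa* (0.998), *Cfd* (0.998) and *Pim1* (0.998) for *Dusp4*. For *Dusp5* they were *Hsph1* (0.990), *Rpl22* (0.979) and *Bcar3* (0.975), for *Dusp6* *Fam149b* (0.987), *Zfp143* (0.982) and *Atg101* (0.981), and for *Dusp7* *Asap1* (0.997), *Svil* (0.992) and *Crlf2* (0.992). For *Dusp8* they were *Mfhas1* (0.998), *Col5a2* (0.994) and *Traf6* (0.993), for *Dusp10* *Airn* (0.981) and *Speg* (0.980), and for *Dusp16* *Ppcdc* (0.995), *Fam135a* (0.995) and *Zfr2* (0.983). The 6 points share their groups and their library scaling, and an r of at least 0.9 was reached by 37 genes for *Dusp2* and by up to 504 genes for *Dusp8*. *Cfd*, which encodes adipsin, is 1 of the white adipocyte genes, and *Hsph1* is 1 of the heat shock genes.

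**Figure D4:**
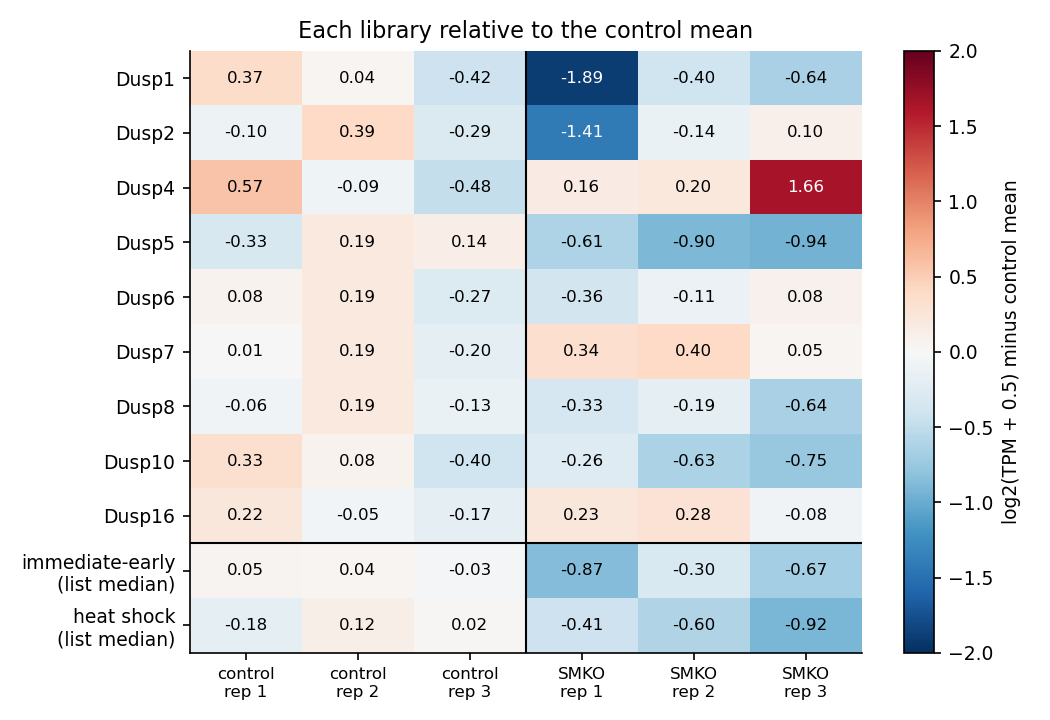
Log2(TPM + 0.5) of each library minus the control mean, for the 9 phosphatase genes and for the medians of the immediate-early and heat shock lists, in blue where lower and red where higher. Dusp1 is lowest in Prdm16 SMKO replicate 1, Dusp4 is highest in Prdm16 SMKO replicate 3, and both list medians are lower in all 3 Prdm16 SMKO libraries than in the controls.

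The pathway around these phosphatases was described from lists of genes by their place in it. Of the 12 MAP kinase genes tested, 9 had higher and 3 lower values in *Prdm16* SMKO mice (median log2 fold change 0.19), and 0 were called or had an unadjusted p under 0.05. The genes with the lowest p were *Mapk3*, which encodes an ERK, at 0.28, *Mapk6* at −0.25 and *Mapk14*, which encodes p38 alpha, at 0.19. Leaving out *Prdm16* SMKO replicate 2 gave a list median of 0.0793 with 5 of 11 genes lower, and leaving out *Prdm16* SMKO replicate 1 brought the list to 0.12 and *Mapk3* to 0.12. Of the 7 MAP kinase kinase genes, 4 had lower values, with a median of −0.0058, and *Map2k1*, *Map2k5* and *Map2k3* were at 0.17, 0.09 and −0.07. *Map2k1* was at 0.045 without control replicate 3 and at 0.34 without control replicate 2. Of the 20 genes for RAS, RAF and MAP3K proteins, 12 had higher values, with a median of 0.07, led by *Nras* (0.23), *Map3k5* (0.20) and *Map3k12* (−0.21). In both lists 0 genes were called or had an unadjusted p under 0.05 (limma). The share of all genes with an unadjusted p under 0.05 was 8.74%.

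Among 29 genes for growth factors and receptor tyrosine kinases, 0 were called, and 1 lower and 3 higher genes had an unadjusted p under 0.05 (limma). *Ntrk3*, a neurotrophin receptor, was at 58.3 ± 14.0 TPM in control and 94.3 ± 13.4 TPM in *Prdm16* SMKO mice (SD, n = 3 each), with all *Prdm16* SMKO libraries above the controls (log2 fold change 0.71; limma, Benjamini-Hochberg adjusted p = 0.297). *Pdgfd*, a platelet-derived growth factor, was at −0.37 and *Fgfr2* at −0.46, which was −0.27 without control replicate 2. Of 10 genes for transcription factors below MAP kinases, 5 were lower and 5 higher, with *Srf*, which binds CArG boxes, at −0.36, *Elk1* at 0.17 and *Mrtfa* at 0.16. For *Srf* all 3 *Prdm16* SMKO libraries (60.40, 59.61 and 47.65 TPM) were below the controls (67.66, 88.78 and 60.67 TPM), and limma gave an unadjusted p of 0.0853. Leaving out control replicate 2 gave −0.20 for *Srf*, leaving out control replicate 3 gave 0.033 for *Elk1*, and leaving out *Prdm16* SMKO replicate 2 gave 0.0013 for *Mrtfa*. Of 10 kinases activated by MAP kinases, 6 had higher values, led by *Mknk2* (0.44), *Mknk1* (0.37) and *Mapkapk2* (−0.15), and *Mknk2* alone had an unadjusted p under 0.05 (limma, unadjusted p = 0.0269, Benjamini-Hochberg adjusted p = 0.476). *Mknk1* was at 0.11 without control replicate 3, and *Mapkapk2* at −0.063 without control replicate 2.

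The list of ERK feedback and output genes holds inhibitors and later targets of ERK signalling, without the phosphatases or the immediate-early genes. Of its 16 genes tested, 13 had higher and 3 lower values in *Prdm16* SMKO mice, with a median of 0.12, and 0 were called. *Ccnd1*, which encodes cyclin D1, was at 0.63 (limma, Benjamini-Hochberg adjusted p = 0.517) and *Errfi1*, a feedback inhibitor of the EGF receptor, at −0.43 (adjusted p = 0.556), the only 2 with an unadjusted p under 0.05. With array weights *Ccnd1* was at 1.12 and was called (limma, adjusted p = 0.0408, over a range of 0.0408 to 0.957 among the alternatives), and it was at 0.36 without control replicate 1. *Spry2*, a feedback inhibitor of RAS signalling, was at −0.38, with no overlap of the groups. With quantile normalization, or without *Prdm16* SMKO replicate 2, 7 of the 16 genes had lower values, with list medians of 0.056 and 0.048. The list median was 0.19 without *Prdm16* SMKO replicate 1. A test of a difference between this list and the phosphatases was not run.

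The other DUSP genes, most of them for small atypical phosphatases, were split evenly, with 6 of 12 tested on each side of 0 and a median of 0.02. *Dusp22*, a phosphatase linked to JNK signalling, held 4.83, 5.42 and 3.37 TPM in control libraries, against 6.66, 6.98 and 8.30 TPM in *Prdm16* SMKO libraries, with no overlap (log2 fold change 0.65; limma, unadjusted p = 0.0144, Benjamini-Hochberg adjusted p = 0.395). *Dusp19* was at −0.22, also with no overlap of the groups but with lower values in *Prdm16* SMKO mice, and *Styx* was at 0.27. *Dusp19* was at −0.11 without control replicate 2, and *Styx* at 0.105 without control replicate 3. Of 6 further phosphatases of MAP kinases from other families, 3 were lower and 3 higher, with *Ppp2ca*, *Ppm1a* and *Ppm1d* at −0.10, 0.09 and −0.11 and 0 genes at an unadjusted p under 0.05 (limma).

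*Dusp1* belongs to the immediate-early genes, which are induced within minutes of a stimulus. Of 28 immediate-early genes tested (the list leaves out the phosphatases), 23 had lower values in *Prdm16* SMKO mice (median log2 fold change −0.62). There were 6 called genes, all lower, *Nr4a1* (−2.45), *Arc* (−1.995), *Atf3* (−1.66), *Nr4a2* (−1.40), *Egr3* (−1.29) and *Fosb* (−1.36), with adjusted p-values from 0.00762 to 0.0414 (limma, Benjamini-Hochberg), and 16 lower genes had an unadjusted p under 0.05. With any 1 library left out, 22 or 23 genes had lower values, and the calls depended on single libraries and on the processing. Of the list, 0 genes were called with no expression minimum (*Nr4a1* at an adjusted p of 0.0579), 2 without a variance trend (*Nr4a1* and *Arc*) and 1 with a replicate block (*Nr4a1*), and 13 with array weights. *Egr3* also lost the call with median-of-ratios size factors and with quantile normalization (limma, adjusted p = 0.0575 and 0.0596), and *Egr3* and *Nr4a2* after rescaling without mitochondrial and ribosomal RNA genes (0.0649 and 0.0516). Without control replicate 2 none of the 6 was called (*Nr4a1* at an adjusted p of 0.0741), *Arc* lost the call without any 1 control and *Atf3* without control replicate 1 or 2. *Nr4a2*, *Egr3* and *Fosb* lost it without any 1 of the 6 libraries. The list summed to 3062 to 3530 TPM in control and 1859 to 2416 TPM in *Prdm16* SMKO libraries, and the median gene was at −0.87, −0.30 and −0.67 relative to the control mean in the *Prdm16* SMKO libraries. As in *Dusp1*, replicate 1 was the lowest of these and replicate 2 the highest.

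All 10 heat shock genes had lower values in *Prdm16* SMKO mice, with a median of −0.64, and 9 of 10 did with array weights. At an unadjusted p under 0.05 there were 7, and 0 were called (limma), but 3 were with a minimum mean of 2 TPM, with robust variances or with array weights, 2 with median-of-ratios size factors and 1 under 4 further alternatives. *Dnajb1*, *Hspa1a* and *Hsph1*, all inducible chaperone genes, were at −1.26, −1.54 and −1.13, with adjusted p-values of 0.0553, 0.0648 and 0.0696 (limma, Benjamini-Hochberg) and no overlap of the groups. *Hspa1a* and *Hspa1b* are near-identical, and their reads can be placed on either. The list summed to 3363 to 3881 TPM in control and 1663 to 2373 TPM in *Prdm16* SMKO libraries. Relative to the control mean the median gene was at −0.41, −0.60 and −0.92 in the *Prdm16* SMKO libraries, highest in replicate 1 and lowest in replicate 3. *Dusp5* had the same order, but its replicates 2 and 3 were nearly level, at 1.31 and 1.26 TPM. The part of tissue handling or RNA quality in these values, and in those of *Dusp1* and *Dusp5*, was not tested.

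Markers of the cell types that the aorta holds were read in the same fit (limma), beside the phosphatase values. Of 10 VSMC genes 7 had lower values, with a median of −0.27, and without control replicate 2 it was 5 of 10 and −0.06. Macrophage genes had higher values in 9 of 10, with sums of 83.55 to 131.4 TPM in control and 131.3 to 242.3 TPM in *Prdm16* SMKO libraries. White adipocyte genes had higher values in 8 of 8, with a median of 0.91, which was 0.31 with 6 of 8 higher without *Prdm16* SMKO replicate 3 and 0.0998 with array weights. So did erythroid genes in 5 of 5 tested, with sums of 1143 to 3167 and 2191 to 19570 TPM. Endothelial genes were higher in 7 of 10 and fibroblast genes in 8 of 10, T cell and B cell genes in 4 of 4 tested each, neuron and Schwann cell genes in 9 of 10, brown adipocyte genes in 1 of 6 and genes of heart and skeletal muscle in 7 of 9. Neuron and Schwann cell genes summed to 124.5, 247.2 and 113.8 TPM in control and to 596.2, 170.0 and 98.08 TPM in *Prdm16* SMKO libraries. The median heart and skeletal muscle gene was at 2.35, −0.365 and −0.059 relative to the control mean in the *Prdm16* SMKO libraries. In both lists replicate 1 stood apart from the other *Prdm16* SMKO libraries. Of 8 adrenal and mesothelial genes 1 passed the expression minimum. Of these marker genes *Tnnt2*, a troponin gene of heart muscle, alone was called, at 5.76 to 11.85 TPM in control and 303.84 to 345.59 TPM in *Prdm16* SMKO libraries, and no marker was at 0 in all libraries. Their part in the phosphatase values was not tested.

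**Figure D5:**
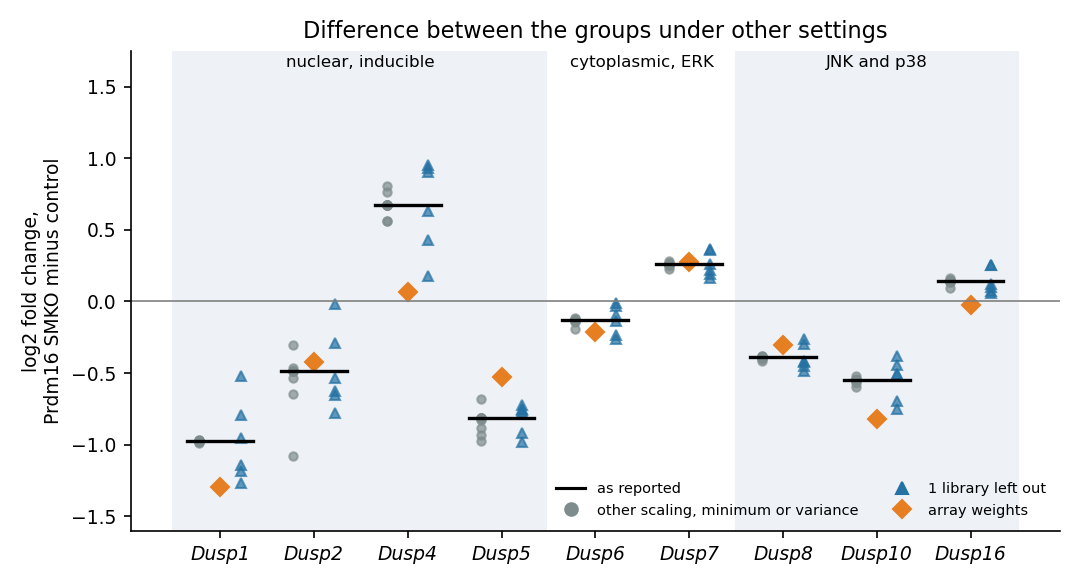
Log2 fold change of each phosphatase gene under the 17 alternative settings, with a black bar for the reported value, grey circles for other scalings, expression minimums, pseudocounts or variance models, blue triangles with 1 library left out and orange diamonds with array weights. All values of Dusp1, Dusp2, Dusp5, Dusp6, Dusp8 and Dusp10 stay below 0, with Dusp2 and Dusp6 reaching −0.019 and −0.014. Those of Dusp4 and Dusp7 stay above 0, and Dusp16 crosses 0 with array weights.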

How the data were processed

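RNA of abdominal aortas was sequenced by the authors in 6 libraries as polyadenylated RNA (NEBNext Ultra kit, paired reads of 151 bases, on average 40 M pairs per the labels). The submitters' processing notes name cutadapt 2.3, FastQC 0.11.8, STAR 2.7.8a, RSEM 1.3.3 and GRCm38, and the annotation and filters are not given in the sources used here. The authors deposited TPM rounded to 2 decimals for 55426 genes. The depth of each single library is unknown, so no counting error or detection limit could be given. Between 20332 and 22100 genes were above 0 per library. Ribosomal RNA transcripts took 15.6% to 31.4% and mitochondrial transcripts 15.8% to 27.4% of the TPM, and both shares move every other gene's TPM.

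Genes averaging 0.5 TPM or more (15775) were taken as log2(TPM + 0.5) and fitted with limma 3.58.1 (R 4.3.3) with a trend, two-sided, with Benjamini-Hochberg adjustment over all genes. Fold changes on this scale understate those of low genes. The fit was tested on simulated data. Exact permutation tests used scipy 1.17.1, and figures matplotlib 3.10.9. Positions are from GENCODE M21 on GRCm38, promoters from RefSeq on GRCm38.p6. The study gives n = 3 per genotype, and the labels number the replicates without saying that each is a separate mouse, so p-values measure the spread between these libraries, which may be technical. The phosphatases and the lists were chosen with earlier results of these data known. Named were all 9 phosphatases, *Prdm16*, from each pathway list the called genes and the 3 with the lowest p that averaged 5 TPM or more, and the 3 genes most like each phosphatase, of which 1 is not reported here. *Ergic1*, AC137853.2, *Hspa1b*, *Tnnt2*, *Myh11* and *Acta2* were named outside this rule.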

Additional observations from a re-analysis of the deposited data

How the results depend on the processing

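None of the 9 phosphatase genes was called under 16 of the 17 alternatives, and with array weights 1 was, *Dusp10* (log2 fold change −0.82). *Dusp16* changed sign with array weights (−0.022). The number of all genes called was 56, and was 10 with no expression minimum, 153 with median-of-ratios size factors, 129 with quantile normalization, 123 after rescaling without mitochondrial and ribosomal RNA genes, 33 without a variance trend, 112 with robust variances and 494 with array weights. With 1 library left out it ranged from 5 to 61, and the median of the phosphatase genes from −0.49 to −0.0185. A replicate block left 4 genes called and no phosphatase. The correlations of same-numbered deviations were −0.13, −0.11 and 0.02, and those of the other pairs lay between −0.17 and 0.24. With 3 libraries per group, these values cannot decide whether the numbers pair the libraries. Among the pathway genes, *Map2k5* changed sign with array weights (−0.0087) and ranged from −0.057 to 0.182 with 1 library left out, negative with control replicate 3 or *Prdm16* SMKO replicate 1 omitted. *Ppm1d* changed sign with array weights (0.064) and ranged from −0.2202 to 0.026, positive with control replicate 2 or *Prdm16* SMKO replicate 3 omitted. *Map2k3* ranged from −0.1611 to 0.020, positive with control replicate 2 omitted. Called genes with median-of-ratios size factors were 60 higher and 93 lower, and with quantile normalization 46 and 83, against 29 and 27. Of the 36 named pathway genes, the log2 fold change of 21 moved by over 1.5 times with some 1 library left out. None of the 6 called genes did, but genes near 0 pass this ratio easily and the called genes have large fold changes. The contrast therefore does not show that the calls are stable. The median of all genes was 0.11 without control replicate 2, where *Dusp5* was at −0.72. *Dusp2* was below a minimum mean of 2 TPM. The causes were not tested.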
